A study of Mus musculus with 3 samples.

Results

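The 8 genes described here encode secreted signals and receptors that link a tumour in bone to bone resorption and bone formation. They are the parathyroid hormone-related protein gene Pthlh, the RANK ligand gene Tnfsf11 with its receptor Tnfrsf11a (RANK) and its decoy receptor Tnfrsf11b (osteoprotegerin), the macrophage colony-stimulating factor gene Csf1 with its receptor Csf1r, and the Dickkopf genes Dkk1 and Dkk2. They were taken by symbol, 8 of the 55357 genes in the count matrices, and their unique molecular identifiers (UMIs) were summed by cell class, by tumour cluster and by library. As background, PTHrP made by tumour cells acts on osteoblast-lineage cells, which answer with more RANK ligand. RANK ligand and CSF1 together drive myeloid precursors to become osteoclasts, the cells that resorb bone, and osteoprotegerin binds RANK ligand before it reaches RANK. Dickkopf proteins are secreted regulators of Wnt signalling, a pathway that favours bone formation, through the co-receptors Lrp5 and Lrp6.

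The cells came from tumours of LLC1, a Lewis lung carcinoma line of the mouse, grown for 14 days in the right tibia after injection of 1000000 cells. All hosts were 8 weeks old, and they were wild type, DMP1-Cre Mfn2-/- or DMP1-Cre Rhot1-/-. Dmp1-Cre acts in osteocytes and late osteoblasts, so the deletion belongs to the host bone cells and the injected tumour cells do not carry it. Mfn2 encodes the mitochondrial fusion protein mitofusin 2, and Rhot1 encodes Miro1, which couples mitochondria to transport along the cytoskeleton. The labels of the control, wild type, name no Cre, so carrying Cre and losing the gene cannot be told apart in either comparison. Tumours of 3 mice were digested, sorted for live cells and pooled in equal parts into 1 droplet 3′ library per genotype, called the wild-type, the Mfn2 and the Rhot1 library below. Where 3 values follow each other, they stand in that order of libraries. With 1 library per genotype there is no replicate check and no test between genotypes, and both comparisons share the wild-type library. Values in parentheses are exact 95% intervals that cover counting error only.

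The 3 libraries held 9393 to 10016 barcodes with median depths of 9927 to 12024 UMIs, and 9011, 9490 and 9104 cells were kept. Any 2 libraries shared 20 to 35 barcodes. Cells were grouped into 25 clusters with the 8 genes left out of the clustering, and clusters were named from marker lists. Osteoblasts and osteocytes, the labelled site of the deletion, were not recovered as a class: Bglap, the osteocalcin gene, had 3, 2 and 2 UMIs, Dmp1 had 9, 6 and 3, and the osteocyte gene Mepe had 0 in each library. Other genes of that marker list were present, with Runx2 at 2828, 3065 and 2938 UMIs, Phex at 575, 904 and 766 and Ifitm5 at 126, 88 and 136 over all kept cells, and the 12 genes of the list summed to 34.2, 37.9 and 35.5 CPM in tumour-like cells. Over all kept cells Mfn2 stood at 16.2, 20.2 and 20.7 CPM (counts per 1000000 UMIs), and Rhot1 at 23.1, 23.7 and 25.2. A 3′ tag outside the deleted part does not check a deletion, and tumour cells dominate these sums. The receptor of PTHrP, Pth1r, was near 0 as well, at 0.572, 0.466 and 0.415 CPM over all kept cells.

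The promoters of Pthlh and Dkk2 are shown because these 2 genes were the members with most UMIs in tumour cells and were both higher in both knockout libraries. Pthlh (ENSMUSG00000048776) lies on chromosome 6, 147252101 to 147264183, on the minus strand of GRCm38, and Dkk2 (ENSMUSG00000028031) on chromosome 3, 132085292 to 132180304, on the plus strand. The sequences are from RefSeq (GRCm38.p6), 250 bases before to 50 bases after the annotated start, printed 5′ to 3′ on the strand of the gene. They cover chr6:147263964-147264263 and chr3:132085042-132085341. The RefSeq start used for Pthlh lies inside the gene span given above, so part of the sequence printed before it overlaps that span. Capitals mark the matches to the motifs searched.
Pthlh: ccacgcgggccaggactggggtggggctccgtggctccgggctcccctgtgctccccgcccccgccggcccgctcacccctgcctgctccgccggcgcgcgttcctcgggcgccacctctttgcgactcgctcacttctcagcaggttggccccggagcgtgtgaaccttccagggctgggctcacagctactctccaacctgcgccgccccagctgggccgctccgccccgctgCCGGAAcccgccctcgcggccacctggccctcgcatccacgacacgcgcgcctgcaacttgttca
Dkk2: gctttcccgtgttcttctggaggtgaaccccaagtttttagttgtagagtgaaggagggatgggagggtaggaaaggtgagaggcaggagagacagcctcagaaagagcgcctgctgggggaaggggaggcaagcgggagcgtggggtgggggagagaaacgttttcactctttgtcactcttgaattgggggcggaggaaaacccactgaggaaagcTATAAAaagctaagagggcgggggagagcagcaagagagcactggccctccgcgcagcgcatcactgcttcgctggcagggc
The Pthlh promoter is 74% G and C, and the Dkk2 promoter 57.7%. The 5 motifs searched on both strands were CCGGAA (an ETS core with flanks), TATAAA (the TATA box), TGACTCA (AP-1), GACCACCCA (GLI) and CTTTGAT (TCF/LEF). Pthlh held CCGGAA once, beginning 15 bases before its RefSeq start, a motif found in 14.9% of 32851 promoters of the same length. Dkk2 held TATAAA once, beginning 32 bases before its start, a motif found in 13.6% of promoters. Dkk1 held TATAAA and Tnfsf11 its reverse complement, 1 match each. TGACTCA, GACCACCCA and CTTTGAT, found in 5.20%, 0.253% and 3.73% of promoters, matched none of the 6 members whose promoter was in the table. No motif was shared by the Pthlh and Dkk2 windows.

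Most Pthlh and Dkk2 UMIs lay in tumour-like cells and most Csf1r and Tnfrsf11a UMIs in macrophage-like cells. Tumour-like clusters were named from Hmga2, Cald1 and the keratin gene Krt8, most of them also from the keratin gene Krt18. Only 3 to 5 of the 12 listed tumour markers were raised enough to count in each of these clusters. Tumour-like cells held 90.2% of Pthlh UMIs, 91.1% of Dkk2 UMIs and 84.4% of Csf1 UMIs, against 82.9% of all UMIs. The Csf1 share thus lay close to that of all genes. In the wild-type library the Pthlh share was nearer to that of all UMIs, at 76.6% against 74.3%, and a further 21.3% of its Pthlh UMIs lay in unnamed clusters with 12.3% of all UMIs. B cell-like cells, 45 in the wild-type library, held 12 Pthlh and 21 Dkk2 UMIs there, at 75.7 CPM (39.1 to 132) and 132 CPM (82.0 to 202), intervals that hold the tumour-like levels. Macrophage-like cells held 75.9% of Csf1r UMIs and 65.7% of Tnfrsf11a UMIs, with 7.39% of all UMIs. Tnfsf11 had 23 UMIs in all kept cells, and 17 of them were in T cell-like cells. Tnfrsf11b had 1 UMI, in a macrophage-like cell of the Rhot1 library. Dkk1 had none: 0 of 27605 kept cells allows a share of up to 0.0109% of cells with a UMI and a level of up to 0.00906 CPM.

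**Figure D1:**
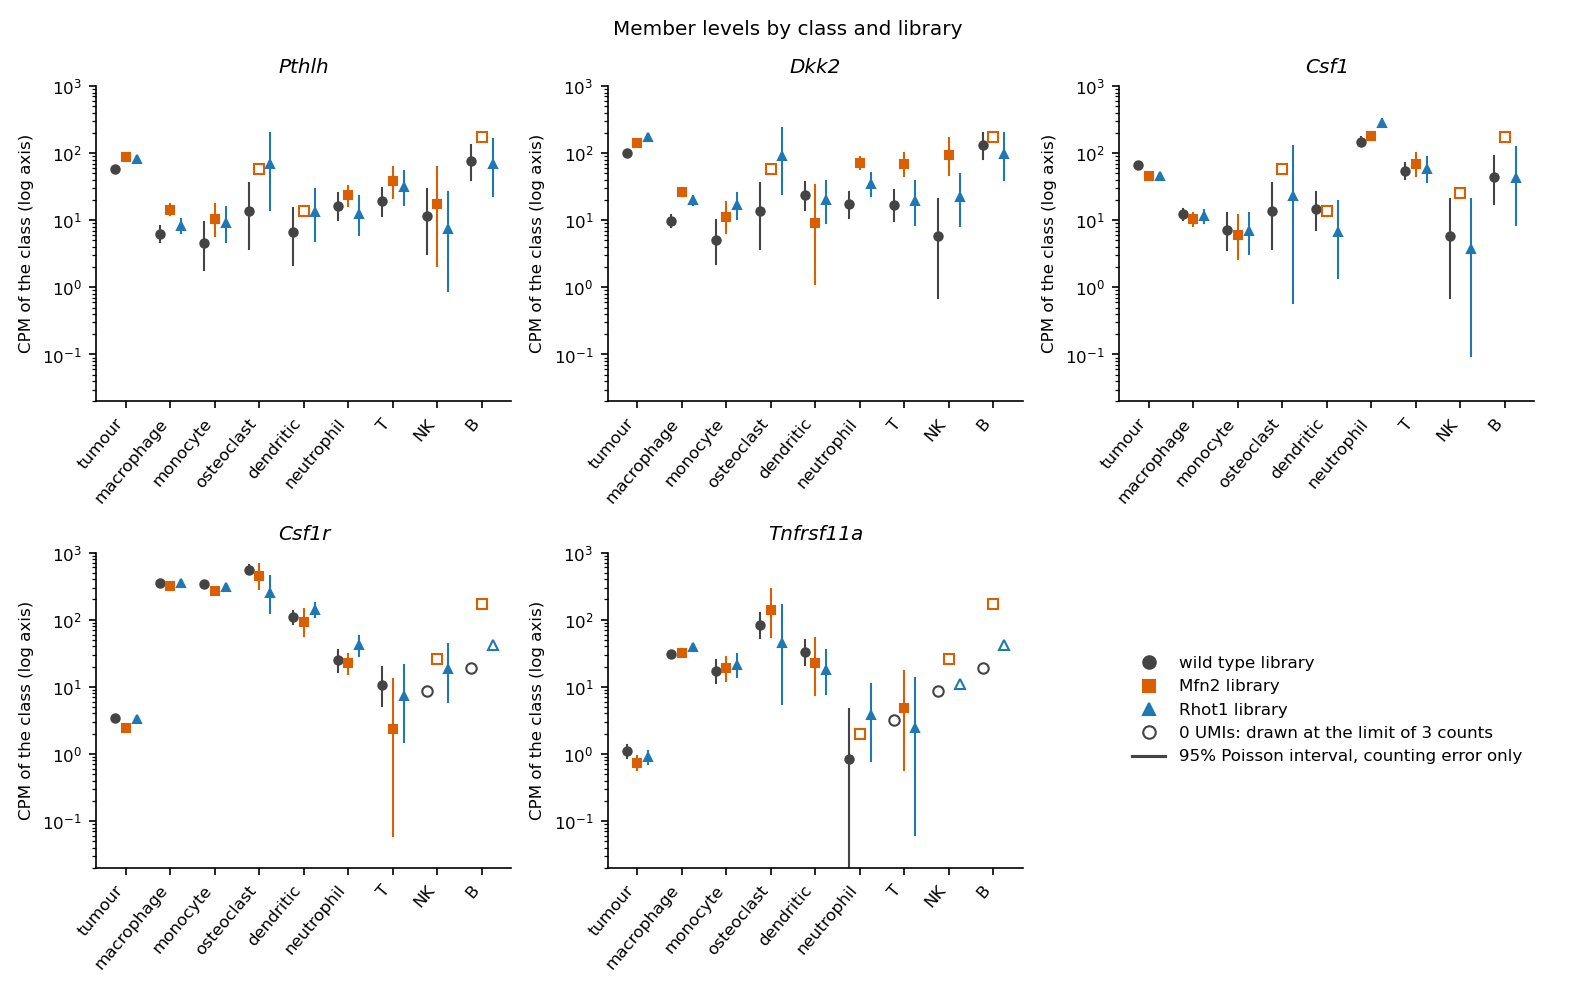
Level of 5 members (CPM of the class total, log axis) in 9 named classes (plasmacytoid dendritic cell-like cells are not drawn), with 1 point per library; lines are exact 95% Poisson intervals for counting error, and open symbols mark 0 UMIs, drawn at the level of 3 counts. Pthlh and Dkk2 were high in tumour-like cells. Wide intervals reached that level for both genes in B cell-like cells of the wild-type and Rhot1 libraries and in Rhot1 osteoclast-like cells. For Dkk2 alone the interval of the Mfn2 NK cell-like cells reached it too. Csf1 was highest in neutrophil-like cells in all 3 libraries. Csf1r and Tnfrsf11a were high in macrophage-, monocyte-, dendritic cell- and osteoclast-like cells.

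Pthlh in tumour-like cells was lowest in the wild-type library. It stood at 58.3 CPM (56.6 to 60.01) in 4309 wild-type cells, 87.9 (86.0 to 89.8) in 5739 Mfn2 cells and 81.4 (79.6 to 83.2) in 5627 Rhot1 cells. Both knockout libraries lay above the wild-type library, and they lay nearer to each other than to it. The ratio to wild type was 1.51 (1.45 to 1.56) for Mfn2 and 1.40 (1.35 to 1.45) for Rhot1, and Rhot1 over Mfn2 was 0.926 (0.898 to 0.955). These ratios leave out unnamed clusters that carried tumour markers. With those clusters added, Pthlh stood at 64.0, 88.0 and 81.9 CPM. The ratios to wild type were then smaller, at 1.38 (1.33 to 1.42) and 1.28 (1.24 to 1.32). A Pthlh UMI was found in 46.2%, 59.3% and 58.4% of tumour-like cells at median depths of 16953, 15493 and 16416 UMIs. With each cell thinned to 1500 UMIs the shares were 8.02%, 12.4% and 11.1%, in the same order.

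Dkk2 in tumour-like cells was also lowest in the wild-type library, and highest in the Rhot1 library. It stood at 101 CPM (98.6 to 103.0), 142 (140.0 to 145) and 175 (172 to 177). The 3 intervals did not overlap. The ratio to wild type was 1.41 (1.37 to 1.45) for Mfn2 and 1.74 (1.69 to 1.78) for Rhot1, and Rhot1 over Mfn2 was 1.23 (1.20 to 1.26). After thinning, 12.2%, 16.8% and 21.1% of cells held a Dkk2 UMI. The UMIs were unevenly spread over cells: the tenth of tumour-like cells with most Dkk2 held 52.6%, 42.4% and 41.0% of its UMIs. The intervals treat UMIs as independent and are too narrow for such a gene.

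Csf1, the ligand that macrophages and osteoclast precursors need for survival, went the other way in tumour-like cells. Its gene (ENSMUSG00000014599) lies on chromosome 3, 107741048 to 107760469, minus strand. It stood at 66.7 CPM (64.9 to 68.5) in wild-type cells against 45.9 (44.5 to 47.2) in Mfn2 and 46.0 (44.6 to 47.3) in Rhot1 cells. The knockout libraries overlapped each other, with a ratio of 1.00 (0.962 to 1.04), and both lay below the wild-type library. The ratios to wild type were 0.688 (0.661 to 0.716) and 0.689 (0.662 to 0.717), and after thinning 9.24%, 5.91% and 6.82% of cells held a Csf1 UMI. The other ligand of the CSF1 receptor, Il34, stood at 8.58 CPM (7.94 to 9.25), 11.7 (11.02 to 12.4) and 10.96 (10.3 to 11.6) in the same cells.

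With a ratio of 1.5 in either direction as the fold called, 2 of the 5 members with 30 or more UMIs in tumour-like cells were past it in the Mfn2 comparison, Pthlh higher and Tnfrsf11a lower. Of 8216 genes at 10 CPM or more in that comparison, 2.59% were past the same fold. Tnfrsf11a, at 1.10 and 0.730 CPM in the wild-type and Mfn2 libraries, lay below the level of that background. With no minimum level 21.2% of genes were past the fold. In the Rhot1 comparison 1 of 5 was past it, Dkk2, against 1.71% of 8265 genes. Of the 3 members at 10 CPM or more, 1 was past the fold in each comparison. Dkk2 in the Mfn2 library, Pthlh in the Rhot1 library and Csf1 in both lay just inside it. With the unnamed tumour-marker clusters added, Pthlh lay inside the fold in both comparisons. Csf1 was then past the fold in both, with ratios of 0.662 and 0.662. Pthlh in the Mfn2 comparison lay so near the fold that it stayed past it in 5 of 12 alternative analyses, while Dkk2 in the Rhot1 comparison stayed past it in 12 of 12.

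**Figure D2:**
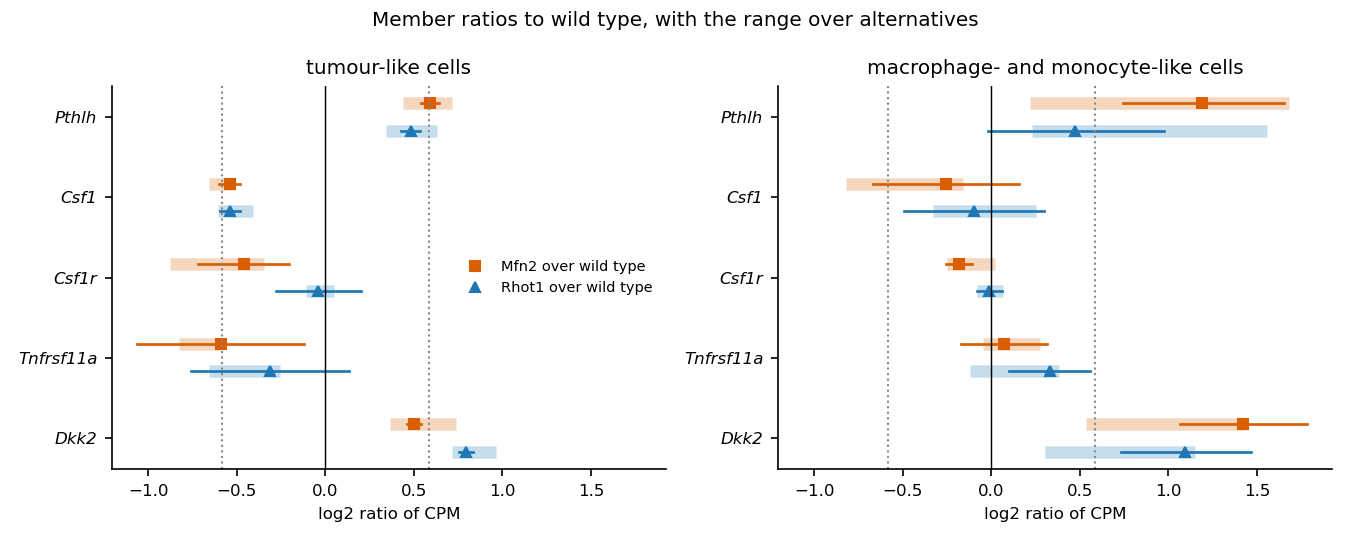
Log2 ratio of CPM to the wild-type library for the 5 members with 30 or more UMIs, in tumour-like cells (left) and in macrophage- and monocyte-like cells (right). Symbols are the main values, thin lines their 95% counting intervals, pale bars the range over alternative analyses and dotted lines the 1.5-fold limits; in tumour-like cells Pthlh and Dkk2 lay above 0 and Csf1 below 0 over the whole of each pale bar.

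Other markers of the tumour-like cells moved between libraries too. The sum of the 12 stromal markers, which include Dcn, Lum and collagen genes, was 1448, 810 and 778 CPM in tumour-like cells, with 0, 1 and 0 of the 12 at 0. The sum of the 12 tumour markers ranged from 12268 to 13182 CPM, with 1 of the 12 at 0 in each library, and the tumour keratin gene Krt8 stood at 598, 701 and 617 CPM. Macrophage markers summed to 240, 313 and 287 CPM. Their part in the Pthlh, Dkk2 and Csf1 differences was not tested.

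The tumour-like cells formed 7 clusters, described here by their leading genes. They were cluster 0 (Fbp2, Pcolce2 and Wfdc2), cluster 1 (the histone genes H1f5, H2ac24 and H1f1), cluster 2 (Prxl2a, Gsta4 and Rundc3a), cluster 3 (Adm, Areg and Dusp4), cluster 5 (Gm49504, Sema3a and Cp), cluster 8 (Cxcl1, Gsta4 and Gm17056) and cluster 16 (the interferon-induced genes Cxcl10, Rsad2 and Ifit1). Each cluster held cells of all 3 libraries. The 3 libraries share these clusters because they were clustered together.

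Pthlh varied between the clusters of a library as well as between the libraries. In the wild-type library it ran from 37.9 CPM in cluster 5 to 86.5 in cluster 3. Among Mfn2 cells it ran from 58.9 in cluster 16 to 105 in cluster 2, and among Rhot1 cells from 67.0 in cluster 1 to 107 in cluster 8. The highest cluster was 2.28, 1.78 and 1.60 times the lowest. Clusters 2, 3 and 8 were the highest 3 in every library. The knockout over wild-type ratio was above 1 in 7 of 7 clusters in both comparisons, with the interval above 1 in 6 of 7 for Mfn2 and 7 of 7 for Rhot1. The ratio was largest in cluster 5, at 2.25 (1.97 to 2.57) for Mfn2 and 1.83 (1.61 to 2.07) for Rhot1, and smallest in cluster 3, at 1.16 (1.08 to 1.251) and 1.11 (1.01 to 1.21).

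Dkk2 was highest in cluster 2 in every library, at 169, 177 and 243 CPM. The lowest cluster differed between libraries, with 75.3 CPM in wild-type cluster 8, 92.5 in Mfn2 cluster 16 and 142 in Rhot1 cluster 1. Every cluster was higher than its wild-type counterpart in both knockout libraries, but for Mfn2 the interval was above 1 in only 4 of 7 clusters, 0, 1, 5 and 8. In clusters 2 and 3 the Mfn2 ratios were 1.05 (0.983 to 1.12) and 1.05 (0.990 to 1.12). For Rhot1 the interval was above 1 in 7 of 7, from 1.38 (1.29 to 1.48) in cluster 3 to 2.72 (2.46 to 3.01) in cluster 8.

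Csf1 was highest in the interferon-gene cluster 16 in every library, at 111, 78.7 and 96.8 CPM. The lowest values were 52.0 CPM in wild-type cluster 2 and 40.3 and 35.8 in cluster 0 of the Mfn2 and Rhot1 libraries. Its ratio was below 1 in 7 of 7 clusters in both comparisons, with the interval below 1 in 6 of 7 in each. Cluster 8 had the lowest ratios, 0.4996 (0.436 to 0.572) and 0.575 (0.505 to 0.655). That cluster also had the largest Dkk2 ratios of the 7.

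**Figure D3:**
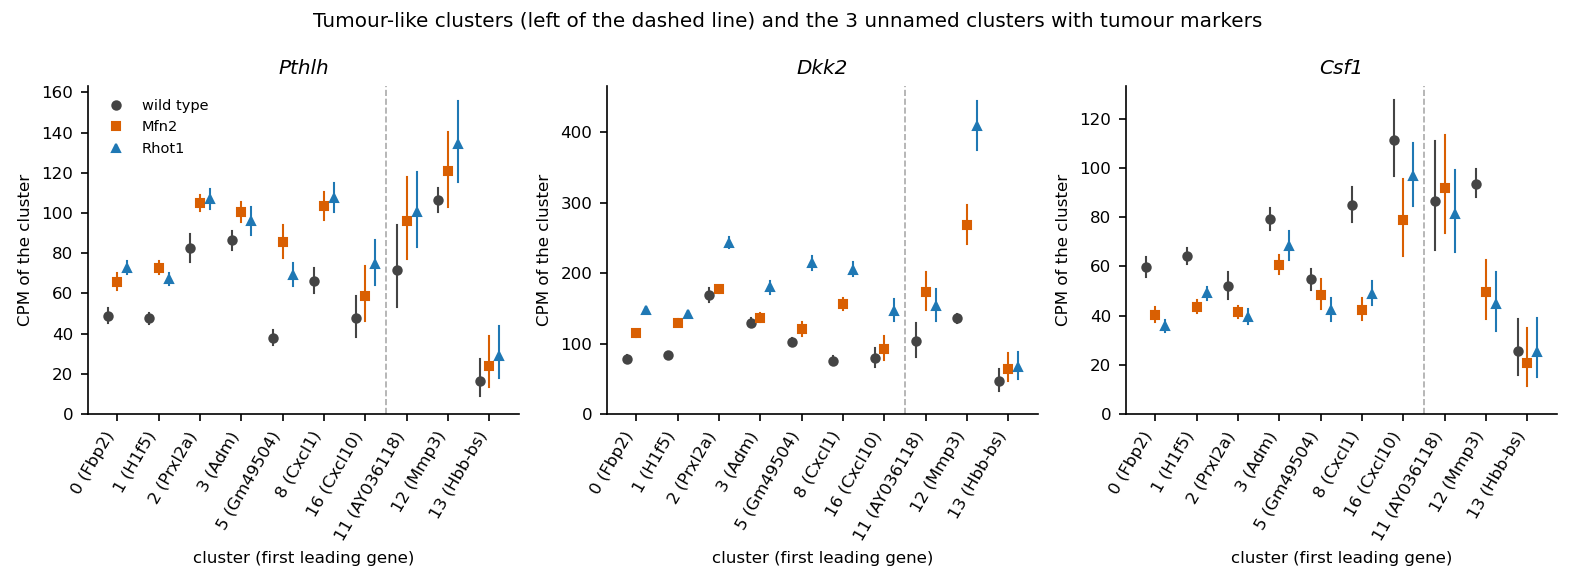
Pthlh, Dkk2 and Csf1 (CPM of the cluster total, linear axis from 0) in the 7 tumour-like clusters, left of the dashed line, and in the 3 unnamed clusters with tumour markers, right of it; points are libraries and lines 95% Poisson intervals for counting error. Knockout points lay above the wild-type point for Pthlh and Dkk2 and below it for Csf1 in each of the 7 tumour-like clusters, and cluster 12 reached 408 CPM of Dkk2 in the Rhot1 library.

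Cluster 12 carried the tumour markers Krt8, Hmga2 and Cald1 but was led by Mmp3, Lum and Mmp10, and it was left unnamed because several of its leading genes mark stromal cells. It held 640 wild-type, 80 Mfn2 and 79 Rhot1 cells, so its values are mostly those of 1 library. Pthlh stood there at 106 CPM (100.4 to 112), 121 (103 to 140.4) and 134 (115 to 156), above the highest tumour-like cluster of each library. Dkk2 stood at 136 CPM (129 to 143), 268 (242 to 297) and 408 (374 to 445), which is 1.98 (1.76 to 2.21) and 3.01 (2.72 to 3.32) times the wild-type level. Csf1 stood at 93.6, 49.6 and 44.5 CPM, with ratios of 0.530 (0.409 to 0.676) and 0.476 (0.359 to 0.620). The transcription factor gene Etv1 was higher in cluster 12, at 277, 290 and 265 CPM, than over the tumour-like cells, at 140, 170 and 153 CPM.

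Etv1 followed Pthlh through the clusters only in part. In each library clusters 2, 3 and 8 were above clusters 0 and 1 for both genes, but cluster 5 was not alike. Cluster 5 had the highest Etv1 of the 7 tumour-like clusters in each library, at 226, 234 and 234 CPM, and in the wild-type library it had the lowest Pthlh. Over the 21 profiles of 7 clusters in 3 libraries, the Pearson correlation of log2(CPM + 5) was 0.42 for Etv1 with Pthlh and 0.55 for Etv1 with Dkk2. These profiles share libraries, depth and the tumour line, so the values are descriptions and carry no test.

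Pthlh and Dkk2 were alike over the same 21 profiles, with a correlation of 0.76. Within the 7 clusters of a single library it was 0.63, 0.89 and 0.67. Dkk2 and Csf1 had a correlation of -0.56 over the 21 profiles and -0.47, -0.64 and -0.38 within the libraries. Pthlh and Csf1 had -0.36 over all profiles and -0.38 within the Mfn2 library, but 0.05 and -0.03 within the wild-type and Rhot1 libraries. Each value within a library rests on 7 clusters. Of 5984 genes compared, those most like Pthlh were Rcan1 (0.92), Golga4 (0.92) and Angptl2 (0.91). Those most like Dkk2 were Spag9 (0.88), Tet3 (0.88) and the Wnt ligand gene Wnt5a (0.86), and those most like Csf1 were Rnf19b (0.86), the interferon regulatory factor gene Irf1 (0.83) and Marchf5 (0.82).

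**Figure D4:**
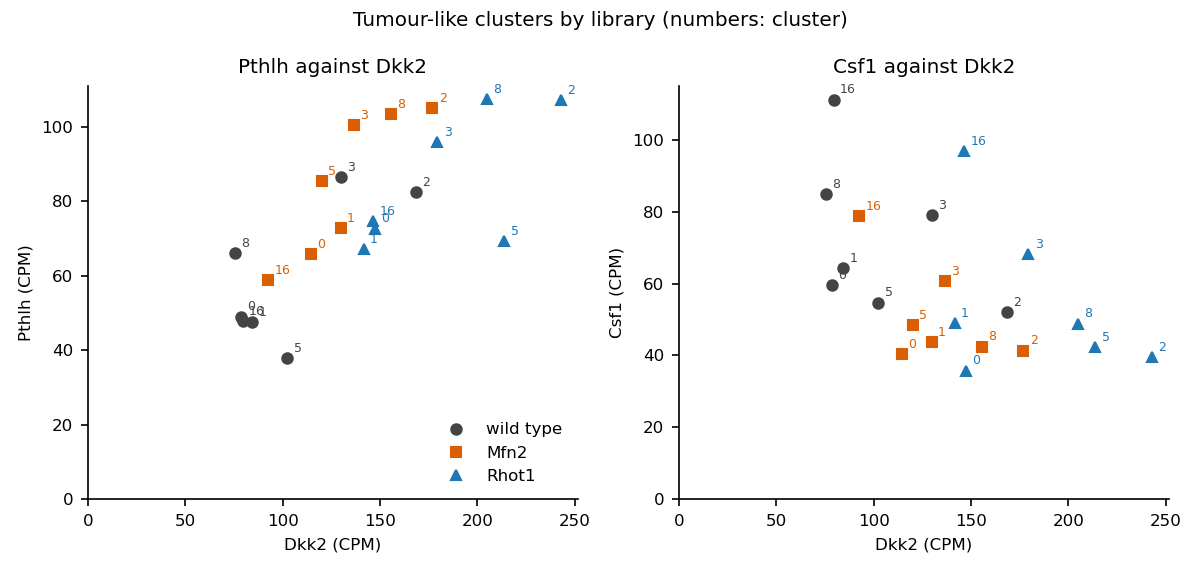
Level of Pthlh (left) and Csf1 (right) against Dkk2 in CPM, with 1 point per tumour-like cluster and library and the cluster number beside it. Within each library, over 7 clusters, Pthlh tended to be higher where Dkk2 was higher (correlations of 0.63, 0.89 and 0.67). Csf1 tended to be lower there (-0.47, -0.64 and -0.38). Correlations are of log2(CPM + 5). Single clusters departed from this, such as wild-type cluster 5, with Dkk2 at 102 CPM and the lowest Pthlh of that library, 37.9 CPM.

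Pthlh and Dkk2 also occurred together in single cells. With tumour-like cells thinned to 1500 UMIs, Pthlh was found in 15.9% of wild-type cells with a Dkk2 UMI and in 6.93% of those without. The shares were 17.8% and 11.4% of Mfn2 cells and 15.5% and 9.92% of Rhot1 cells. For Csf1 the order was the opposite, by small differences in the Mfn2 and Rhot1 libraries. Pthlh was found in 5.57% of wild-type cells with a Csf1 UMI and 8.27% without. The shares were 11.04% and 12.5% of Mfn2 cells and 9.97% and 11.2% of Rhot1 cells. Only 395, 335 and 381 thinned cells held a Csf1 UMI, and no interval was computed for these shares. The difference was largest in the wild-type library for both pairs. Dkk2 had no order with Csf1 common to the libraries. It was found in 12.4% of wild-type cells with a Csf1 UMI and 12.2% without. The shares were 17.6% and 16.8% of Mfn2 cells and 19.7% and 21.2% of Rhot1 cells.

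The ligand Csf1 had a second source. Neutrophil-like cells, named from S100a8, S100a9 and Retnlg, held 4.01% of Csf1 UMIs with 1.07% of all UMIs. Csf1 stood there at 148 CPM (127 to 172), 180 (159 to 202) and 281 (245 to 320) in 698 wild-type, 900 Mfn2 and 468 Rhot1 cells. The Rhot1 library lay above the other 2, its ratio to the wild-type level being 1.89 (1.55 to 2.32), and the Mfn2 ratio was 1.21 (0.999 to 1.47). The Mfn2 direction held in only 6 of 8 alternative analyses. Its ratio was 0.994 with at least 500 genes and at most 10% mitochondrial UMIs per cell, and 0.988 with doublets kept. The Csf1 level of neutrophil-like cells was above that of tumour-like cells in each library. Pthlh, at 16.6, 23.6 and 12.5 CPM in neutrophil-like cells, and Dkk2, at 17.4, 71.4 and 34.9, were below their tumour-like levels. A Csf1 UMI was found in 15.2%, 18.6% and 24.1% of neutrophil-like cells at median depths of 1152.5, 1061 and 1275 UMIs, and in 11.2%, 13.8% and 16.03% of those deep enough to thin, which were 188, 196 and 156 cells. Markers of other cells moved between these groups too: Krt8 stood at 216, 254 and 223 CPM and the osteoclast gene Acp5 at 9.11, 4.59 and 140 CPM, and their part in the Csf1 difference was not tested. T cell-like cells had Csf1 at 54.6, 68.9 and 58.0 CPM, with intervals that overlapped.

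Tnfsf11, the RANK ligand gene (chromosome 14, 78277445 to 78308043, minus strand), was too sparse for any comparison. T cell-like cells held 7, 2 and 8 UMIs, and 62.5% of the Rhot1 UMIs came from 1 cell. NK cell-like cells of the Rhot1 library held 3 more, and 3 of the 23 UMIs lay in tumour-like or unnamed cells. The stromal, osteoblast and osteocyte cells that are known as sources of RANK ligand were not recovered in number. For Tnfrsf11b (chromosome 15, 54250619 to 54278484, minus strand), 0 UMIs in 9011 wild-type and 9490 Mfn2 cells allow levels of up to 0.0281 and 0.0269 CPM. Dkk1 lies on chromosome 19, 30545863 to 30549665, minus strand. No ratio of RANK ligand to osteoprotegerin can be given from these counts.

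Tnfrsf11a, the RANK gene (ENSMUSG00000026321, chromosome 1, 105780718 to 105847981, plus strand), was a gene of myeloid cells. In macrophage- and monocyte-like cells together it stood at 28.8 CPM (25.7 to 32.3) in 2287 wild-type cells, 30.3 (26.8 to 34.2) in 2010 Mfn2 cells and 36.2 (32.4 to 40.3) in 1932 Rhot1 cells. The wild-type and Mfn2 intervals overlapped, and the Rhot1 interval began just above the wild-type one. The ratio to wild type was 1.05 (0.889 to 1.24) for Mfn2 and 1.26 (1.07 to 1.47) for Rhot1. Neither direction held in every alternative: the Rhot1 ratio was 0.919 after thinning to 1500 UMIs, and the Mfn2 ratio 0.967 with doublets kept. Macrophage-like cells, at 30.8, 32.3 and 38.7 CPM, were above monocyte-like cells, at 17.4, 18.9 and 21.2 CPM, in each library. Dendritic cell-like cells had 33.1, 23.0 and 17.8 CPM from 25, 5 and 8 UMIs.

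Csf1r, the receptor that marks the mononuclear phagocyte lineage, differed little between libraries in myeloid cells. It stood at 349 CPM (338 to 361), 308 (296 to 320) and 347 (335 to 359) in macrophage- and monocyte-like cells. The Mfn2 library lay below the other two, at 0.881 times the wild-type level (0.838 to 0.926), and Rhot1 over wild type was 0.992 (0.946 to 1.04). When libraries were clustered one by one, the Mfn2 ratio turned to 1.02. By cluster it was 1.01, 0.993 and 0.967 in macrophage-like clusters 7, 10 and 17, and 0.861 (0.761 to 0.975), 0.771 (0.672 to 0.884) and 0.413 (0.294 to 0.580) in clusters 6, 9 and 15. In monocyte-like cells, cluster 9, the Rhot1 ratio was 0.874 (0.766 to 0.997). A Csf1r UMI was found in 38.1%, 36.1% and 38.2% of these cells after thinning. Macrophage-like cells (350, 315 and 354 CPM) and monocyte-like cells (345, 266 and 302 CPM) had intervals that overlapped in the wild-type library, and monocyte-like cells were lower in both knockout libraries. Levels were lower still in dendritic cell-like cells (109, 91.9 and 140 CPM). Over 20 class-by-library profiles the correlation of Csf1r with Tnfrsf11a was 0.89, and of 6114 genes the ones most like Csf1r were Tgfbi (0.97), Clec4a1 (0.97) and Fcgr1 (0.97). Those most like Tnfrsf11a were Sdc3 (0.96), P2ry6 (0.95) and Sh3bgrl (0.95).

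Both receptors were low in tumour-like cells. Csf1r stood there at 3.39, 2.46 and 3.29 CPM. T cell-like cells, which should lack the gene and had median depths of 2095, 2469 and 2154 UMIs, stood at 10.7, 2.38 and 7.25 CPM from 10, 1 and 3 UMIs. After thinning, 0.585%, 0.300% and 0.573% of tumour-like cells and 1.40%, 0% and 0.820% of T cell-like cells held a Csf1r UMI. The tumour-like values were below those of T cell-like cells in the wild-type and Rhot1 libraries, references that rest on 10 and 3 UMIs. The Mfn2 reference rests on 1 UMI. Whether the tumour-like Csf1r values are background was not tested. Tnfrsf11a in tumour-like cells stood at 1.10, 0.730 and 0.884 CPM from 87, 71 and 87 UMIs. T cell-like cells held 0, 2 and 1 Tnfrsf11a UMIs, too few to set a background for it. Its Mfn2 ratio of 0.664 (0.479 to 0.919) was past the 1.5-fold limit. By cluster the Mfn2 ratio of Tnfrsf11a was above 1 in 2 and below 1 in 3 of 5 tumour-like clusters. It ran from 0.390 in cluster 2 to 1.64 in cluster 3, and each interval held 1.

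The tumour signals were in turn low in myeloid cells. In macrophage- and monocyte-like cells Pthlh stood at 6.07, 13.9 and 8.43 CPM and Dkk2 at 9.10, 24.3 and 19.5 CPM, with 0.470%, 1.45% and 1.38% of thinned cells holding a Pthlh UMI and 1.503%, 2.26% and 2.01% a Dkk2 UMI. These levels were below those of neutrophil-like and T cell-like cells of the same library, except for Dkk2 in the Rhot1 library, at 19.5 CPM against 19.3 in T cell-like cells. The neutrophil-like and T cell-like cells were shallower, with median depths of 1146.5 and 2136 UMIs against 3938. Whether the Pthlh and Dkk2 levels in myeloid cells are background was not tested. Pthlh and Dkk2 were both past 1.5-fold higher in the Mfn2 library, with ratios of 2.28 (1.68 to 3.14) and 2.67 (2.09 to 3.44). Dkk2 was also past it in the Rhot1 library, at 2.14 (1.66 to 2.77). These are 2 and 1 of 5 members past the fold, against 4.6% of 8057 and 2.63% of 8047 genes. That background takes genes at 10 CPM or more in 1 of the 2 libraries. By the same rule the members past the fold were 2 of 5 and 1 of 4. Pthlh and Dkk2 reached 10 CPM in these cells only in knockout libraries. Krt8 in the same cells stood at 77.8, 123 and 85.5 CPM and Hmga2 at 46.5, 97.4 and 61.3. The Dkk2 UMIs per Pthlh UMI were 1.5 (1.08 to 2.09), 1.76 (1.40 to 2.21) and 2.31 (1.76 to 3.05) in macrophage- and monocyte-like cells, intervals that hold the tumour-like values of 1.73, 1.62 and 2.15. Without cluster 15, a shallow macrophage-like cluster with a median of 989 UMIs, the log2 ratio for Mfn2 was 0.54 for Pthlh, no longer past the fold, and 0.94 for Dkk2. Erythroid markers summed to 16.6, 274 and 202 CPM in these myeloid cells and neutrophil markers to 799, 1557 and 886 CPM, and their part in the ratios was not tested.

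Osteoclast-like cells carried both receptors. There were 22, 3 and 2 of them, and Csf1r had a UMI in 22 of 22, 3 of 3 and 2 of 2. The size of this class depended on the clustering: with each library clustered on its own it held 23 wild-type and 196 Mfn2 cells, and no Rhot1 cluster took its name. Csf1r stood at 553 CPM (470 to 646), 451 (286 to 676) and 251 (125 to 449), and Tnfrsf11a at 83.5 CPM (53.5 to 124), 137 (55.2 to 283) and 45.6 (5.52 to 165) from 24, 7 and 2 UMIs. In the wild-type library Tnfrsf11a was higher in these cells than in macrophage-like cells, by intervals that did not overlap. The 2 Rhot1 cells also held tumour genes, with Krt8 at 251 CPM. The osteoclast effector genes Acp5 (acid phosphatase), Ctsk (cathepsin K) and Mmp9 stood at 14097, 7869 and 5720 CPM in the wild-type osteoclast-like cells. Over all kept cells Acp5 was 50.2, 16.3 and 12.2 CPM, and Ctsk was 26.6, 5.67 and 4.60.

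The pathway lists around the members are short, and their counts past 1.5-fold are read against the shares of all genes given above, 2.59% and 1.71% in tumour-like cells and 4.6% and 2.63% in macrophage- and monocyte-like cells. Nothing particular to a list can be read from counts of 0 or 1 at such shares. The median log2 ratio of all genes was 0.01 and 0.07 in tumour-like cells and 0.03 and 0.07 in macrophage- and monocyte-like cells. Of the PTHrP axis list, 9 of 16 genes were at 10 CPM or more in tumour-like cells, none was past the fold in the Mfn2 comparison, and 1 was higher in the Rhot1 comparison. That gene was Crem, a cAMP-responsive transcription factor gene, at 15.04, 22.4 and 22.7 CPM, with ratios of 1.49 (1.39 to 1.60) and 1.51 (1.41 to 1.62). The median log2 ratio of the list was -0.08 and 0.01. Of the RANK signalling list, 13 of 16 genes were measured in macrophage- and monocyte-like cells and none was past the fold, with medians of -0.02 and -0.03. Nfatc1, the master regulator of osteoclast formation, stood at 16.2, 20.2 and 20.8 CPM in these cells. Of the CSF1 receptor list, 11 of 14 were measured and none was past the fold, with medians of -0.13 and -0.05. Its lowest members in the Mfn2 library were the transcription factor genes Ets2 and Runx1, with ratios of 0.691 (0.639 to 0.747) and 0.694 (0.635 to 0.759).

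The Wnt side of the pathway was thin in tumour-like cells. None of 12 other secreted Wnt antagonists, such as Sost, Wif1 and the Sfrp genes, reached 10 CPM, so Dkk2 was the only Wnt antagonist of those listed at that level. Of 15 receptors and co-receptors 3 were measured, Lrp6, Kremen1 and Znrf3, and none was past the fold. Lrp6, a co-receptor bound by Dickkopf proteins, stood at 37.9, 32.9 and 32.9 CPM, with ratios of 0.867 (0.825 to 0.912) and 0.868 (0.826 to 0.913). Of 16 Wnt ligands 3 were measured, and none was past the fold. Wnt5a stood at 24.1, 27.7 and 30.5 CPM. Of 12 Wnt target genes 3 were measured, Ccnd1, Myc and Apcdd1, and none was past the fold.

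Of 24 other bone-active secreted factors, 6 were at 10 CPM or more in tumour-like cells of at least 1 library. Il11, a cytokine gene known to favour osteoclast formation, was past the fold higher in both comparisons. It stood at 5.34, 14.3 and 21.2 CPM, with ratios of 2.67 (2.40 to 2.99) and 3.97 (3.57 to 4.41). Il1b was past it lower in the Mfn2 comparison, at 13.5, 6.30 and 9.43 CPM. Il11 reached 10 CPM only in the knockout libraries and Il1b only in the wild-type library. Each was thus counted only through the libraries where it was high, and these calls are descriptions. Neutrophil markers summed to 111, 146 and 89.0 CPM in the same cells, and their part in the Il1b values was not tested. Spp1, the osteopontin gene, stood at 1589, 1124 and 1129 CPM, with ratios of 0.707 (0.702 to 0.713) and 0.710 (0.705 to 0.716). The median log2 ratio of the 6 was -0.28 and -0.43.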

How the data were processed

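Single-cell RNA was measured in 3 droplet 3′ libraries of tibial LLC1 tumours, 1 per host genotype. Tumours were digested for 1 h with collagenase at 2 mg/ml, passed through a 70 µm filter and sorted for live cells, per the labels' protocols. Each library pooled 3 tumours, and nothing in the files used here assigns cells to mice, so 1 pool counts as 1 sample. What the authors deposited are raw UMI counts, whole numbers for each gene and barcode. Per the file headers, Cell Ranger 7.0.0 wrote them. The submitters' processing notes name genome build mm10. Not given in the sources used here are the annotation and the intron setting. 3′ counts are not compared between genes.

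Kept cells had at least 300 genes and no more than 15% mitochondrial UMIs, and Scrublet marked 284 wild-type, 378 Mfn2 and 255 Rhot1 cells as doublets, which were removed. Counts were normalised to 10000 UMIs and log-transformed, and 2000 variable genes without the members, 30 principal components and 15 neighbours were used (scanpy 1.11.5). Leiden clustering used resolution 1 (leidenalg 0.10.2), with no integration of libraries. Clusters were named from marker lists, by a scoring rule set after the data were seen. UMIs were summed per class and library and given as CPM with exact Poisson intervals, ratios with exact conditional intervals and a 0 with the level of 3 counts. Intervals cover counting error only. With 1 library per genotype no test was run. A gene was called past a ratio of 1.5, and background shares use genes at 10 CPM or more. Only the ratio intervals and the 1.5-fold call were tested on simulated data. The simulated class totals were Poisson counts, the spread that the intervals assume.

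All members are named where the libraries together held 30 or more UMIs, and of each pathway list the 2 highest and 2 lowest ratios could be named. The members and lists were chosen with earlier results of these data known. Coordinates are from GENCODE M21. Promoters are from RefSeq, and 6 of the 8 members matched.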

Additional observations from a re-analysis of the deposited data

Results flagged for a closer look

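Csf1 moved in opposite directions in 2 cell classes under the same contrast. The Rhot1 over wild-type ratio of its level was 0.689 (0.662 to 0.717) in tumour-like cells and 1.89 (1.55 to 2.32) in neutrophil-like cells, and the difference between the classes was not tested, because each genotype had 1 library. Over 8 alternative analyses the neutrophil-like ratio ran from 1.56, with doublets kept, to 2.03, when libraries were clustered one by one. Those alternatives for Csf1 in neutrophil-like cells were chosen after seeing the data. Without the cell with most Csf1 UMIs in each library the ratio was 1.88 (1.53 to 2.31).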

How the results depend on the processing

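No paired analysis was possible because each genotype has 1 library, and for the same reason no replicate could be left out. Counts of members past 1.5-fold moved with the processing, as several ratios lay near that limit. In tumour-like cells the Mfn2 count of 2 was 1 with doublets kept, at Leiden resolution 0.5, with median-of-ratios size factors and with clusters weighted alike, where Tnfrsf11a remained and Pthlh did not, and it was 5 at the lower fold tried. The Rhot1 count of 1 in these cells was 2 at resolution 2, with the members among the clustering genes, with median-of-ratios size factors, per cell, with clusters weighted alike and after adding the unnamed tumour-marker clusters, and 3 at the lower fold tried. In macrophage- and monocyte-like cells the Mfn2 count of 2 was 1 with doublets kept, at resolution 0.5 and without cluster 15 (the last chosen after seeing the data). The Rhot1 count of 1 there was 0 with doublets kept, 2 at resolution 0.5 and with each library clustered on its own, and 3 at the lower fold tried. Directions in tumour-like cells held: Pthlh and Dkk2 were above and Csf1 below wild type in 12 of 12 alternatives in both comparisons. The ratios ran from 1.35 to 1.64 and 1.27 to 1.55 for Pthlh, 1.29 to 1.67 and 1.64 to 1.95 for Dkk2, and 0.634 to 0.703 and 0.656 to 0.752 for Csf1, for Mfn2 and Rhot1 in turn. The background share past the fold in tumour-like cells was 21.2% and 20.1% with no minimum level and 1.73% and 1.04% at 50 CPM or more. In macrophage- and monocyte-like cells it was 20.2% and 18.7%, and 2.93% and 1.78%. In macrophage- and monocyte-like cells the Tnfrsf11a ratio kept its direction in 11 of 12 alternatives in each comparison, and the Csf1r ratio in 11 of 12 for Mfn2 and 8 of 12 for Rhot1, where it ran from 0.947 to 1.05. Tnfsf11, Tnfrsf11b and Dkk1 had too few UMIs for a ratio.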

Other observations

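The number of Dkk2 UMIs per Pthlh UMI differed between libraries in tumour-like cells, at 1.73 (1.67 to 1.79) in the wild-type, 1.62 (1.58 to 1.66) in the Mfn2 and 2.15 (2.09 to 2.21) in the Rhot1 library. In neutrophil-like cells of the Mfn2 library it was 3.03 (2.06 to 4.54), an interval above the tumour-like value of that library. There 17.4% of the Dkk2 UMIs came from 1 cell.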
